A study of Homo sapiens with 33 samples.

Results

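A set of 10 transcription factor genes that direct the forming nervous system were lower in human embryonic stem cells (ESCs) without EZH2 than in wild-type ESCs, although their promoters had lost the repressive mark H3K27me3. They were PAX6, SOX1, POU3F1, POU3F2, LHX5, SOX21, MEIS2, PAX3, PAX7 and SOX9, which are 10 of the 35805 genes in the RNA table and 10 of the 35683 gene names in the chromatin table, where they have 73 of the 153956 start-site windows. They were chosen by name as developmental regulators that carried H3K27me3 in wild-type ESCs and had less RNA in EZH2-/- than in EZH2+/+ ESCs, so their values in that comparison describe the choice and were not tested. All ESCs were of the H9 line, an established human line, grown with FGF2 on mouse feeder cells and sorted for the surface antigen SSEA4, and RNA-seq was done on 3 libraries of each of 4 genotypes. EZH2+/+ cells were unedited, and EZH2-/+ cells were a clonal line with 1 allele disrupted by CRISPR/Cas9. EZH2-/- cells had both alleles disrupted and carried a doxycycline-inducible EZH2 transgene that was left off. They were derived from an EZH2-/+ line that was given the transgene and then targeted again under doxycycline. They had thus been exposed to doxycycline and transgenic EZH2 earlier. The paper calls the EZH2+/+ and EZH2-/+ lines parental, so the edited groups are not independent derivations. EZH2-/- +EZH2 cells were the same line as EZH2-/- with that transgene switched on by doxycycline, which the other groups did not receive when profiled. Each edited genotype is a clonal line, so clone and genotype cannot be told apart, and nothing in the labels says that the 3 libraries came from separate derivations.

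EZH2 is the catalytic subunit of Polycomb repressive complex 2, which methylates lysine 27 of histone H3. In ESCs this mark lies over the CpG-rich promoters of developmental genes, many of which also carry H3K4me3 and are held at a low level until a lineage is chosen. Neuroectoderm is the layer that gives rise to the brain, spinal cord and neural crest. PAX6 and SOX1 are among the first factors of human neuroectoderm, POU3F1 and POU3F2 are POU-domain factors of early neural progenitors, and PAX3, PAX7 and SOX9 act at the neural plate border and in the neural crest.

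EZH2 RNA followed the genotype labels, with 63.8 ± 4.56 RPM (reads per 1000000 reads, mean ± SD, n = 3) in EZH2+/+, 51.2 ± 4.95 in EZH2-/+, 9.95 ± 1.44 in EZH2-/-, then 304 ± 70.6 in EZH2-/- +EZH2. Transcripts of a disrupted gene can still be counted, so the remaining reads in EZH2-/- do not show intact mRNA. The 12 libraries held 16587860 to 36589089 reads on genes. The summed level of 16 undifferentiated ESC genes was 2835 to 3487 RPM in EZH2+/+, 3689 to 4713 in EZH2-/+, 4393 to 5024 in EZH2-/-, then 3977 to 4865 in EZH2-/- +EZH2, with none of the 16 at 0 in any genotype. Such a sum is weighted to the most abundant genes and does not measure how undifferentiated the cells were.

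All 10 genes had their highest mean level in EZH2+/+ ESCs, and none returned to that level when EZH2 was switched back on. With EZH2 restored the mean was lower still for PAX6, POU3F2, SOX21, MEIS2, PAX3, PAX7 and SOX9, and it was higher than without EZH2 for SOX1, LHX5 and POU3F1. PAX6, the paired-box factor that specifies eye and forebrain (ENSG00000007372, chr11:31784792-31817961, GRCh38), measured 8.48, 8.11 and 3.37 RPM in the 3 EZH2+/+ libraries, 1.69, 0.799 and 2.76 in EZH2-/+, 0.510, 1.76 and 0.920 in EZH2-/-, and 0.386, 0.348 and 0.520 in EZH2-/- +EZH2. Every EZH2+/+ library stood above every library of the other genotypes. The EZH2-/+ and EZH2-/- libraries overlapped, and EZH2-/- and EZH2-/- +EZH2 overlapped only through the lowest EZH2-/- library. SOX1, an HMG-box factor of dividing neural progenitors (ENSG00000182968, chr13:112067647-112070488), measured 9.41, 9.33 and 3.50 RPM in EZH2+/+ and 0.539, 0.194 and 1.09 in EZH2-/+. In EZH2-/- it had 0, 1 and 1 reads, which is 0, 0.0188 and 0.0297 RPM, and in EZH2-/- +EZH2 it had 8, 6 and 3 reads, or 0.206, 0.161 and 0.120 RPM. No library without EZH2 reached the lowest library of any other genotype. The library with 0 reads allows a level of up to 0.0528 RPM, the level of 3 reads. From the 17 and 2 reads of the groups, SOX1 was 12.1-fold higher with EZH2 restored than without it. SOX1 was chosen for its low level in the EZH2-/- libraries, so this ratio is a description and not a test. Reads this few also leave it imprecise.

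**Figure D1:**
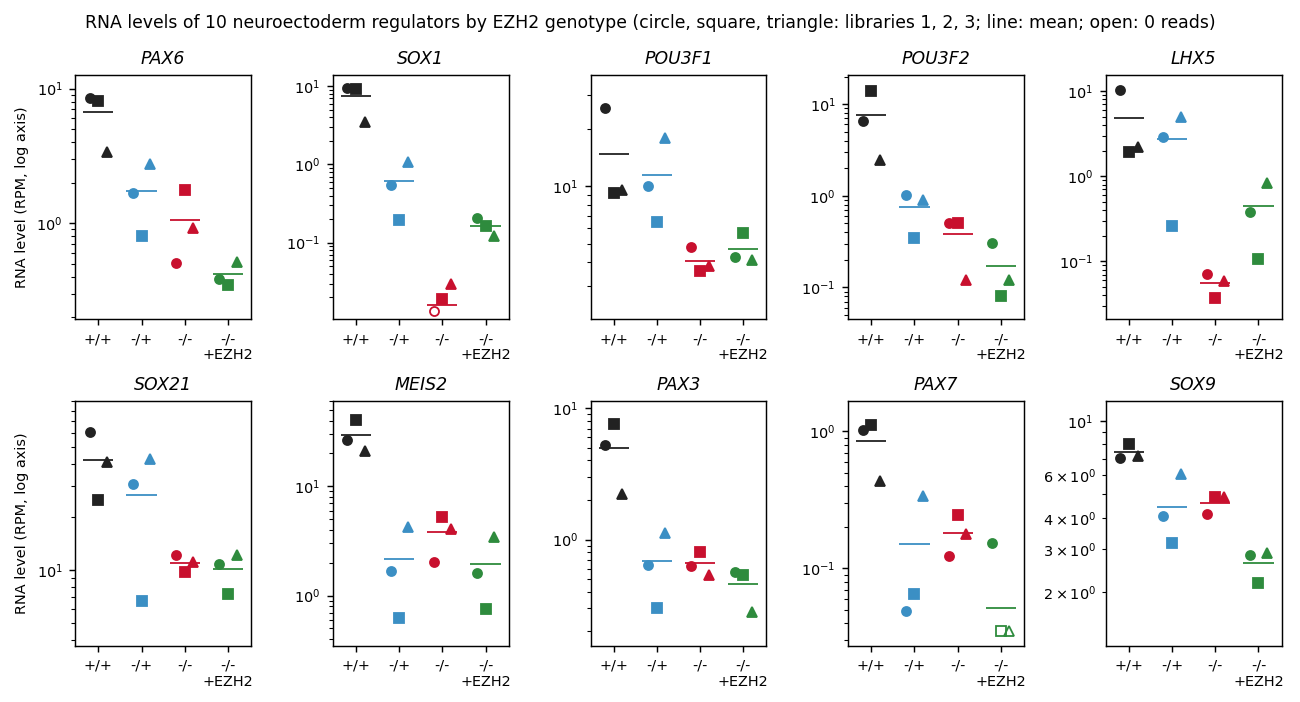
RNA level in RPM on a log axis for each of the 10 genes, with the 4 EZH2 genotypes along the horizontal axis, 1 symbol per library, a line at the mean of 3 libraries and open symbols at the lower edge for libraries with 0 reads. EZH2+/+ has the highest mean in every panel, and all EZH2-/- +EZH2 libraries lie above all EZH2-/- libraries for SOX1 and LHX5 alone.

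SOX21 and SOX9 differed less between genotypes than SOX1 did. SOX21, a SOX factor that counteracts SOX1 and its relatives and promotes neuronal differentiation (ENSG00000125285, chr13:94709622-94712399), measured 60.5, 24.95 and 40.9 RPM in EZH2+/+, 30.6, 6.72 and 42.3 in EZH2-/+, 12.1, 9.72 and 11.2 in EZH2-/-, and 10.8, 7.34 and 12.2 in EZH2-/- +EZH2. The 2 groups derived from the EZH2-/- line overlapped fully, and the EZH2-/+ libraries spanned both low and wild-type levels. SOX9, which is needed for neural stem cells, neural crest and cartilage (ENSG00000125398, chr17:72121020-72126420), measured 7.06, 8.04 and 7.19 RPM in EZH2+/+, 4.09, 3.18 and 6.08 in EZH2-/+, 4.15, 4.86 and 4.87 in EZH2-/-, and 2.83, 2.17 and 2.88 in EZH2-/- +EZH2. SOX9 was the gene with the smallest difference between EZH2-/- and EZH2+/+, and its lowest libraries were those with EZH2 restored, with no overlap with any other genotype.

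PAX3 and PAX7, paired-box factors of the dorsal neural tube and neural crest, were low in all 3 edited groups. PAX3 (ENSG00000135903, chr2:222199888-222298996) measured 5.24, 7.58 and 2.23 RPM in EZH2+/+ and between 0.280 and 1.12 RPM in the 9 other libraries. The EZH2-/+, EZH2-/- and EZH2-/- +EZH2 means were 0.687 ± 0.411, 0.658 ± 0.138 and 0.460 ± 0.157 RPM (SD, n = 3), and these groups overlapped. PAX7 (ENSG00000009709, chr1:18631006-18748866) had 46, 44 and 20 reads in EZH2+/+, or 1.02, 1.12 and 0.437 RPM, against 2, 3 and 19 reads in EZH2-/+, 7, 13 and 6 in EZH2-/- and 6, 0 and 0 in EZH2-/- +EZH2. With so few reads its order among the edited genotypes was not resolved, and the 2 libraries with 0 reads allow up to 0.0804 and 0.120 RPM.

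The POU-domain genes differed from each other in EZH2-/+ cells. POU3F1, also called OCT6, a factor of the epiblast on its way to neural fate (ENSG00000185668, chr1:38043827-38046794), measured 25.6, 9.18 and 9.59 RPM in EZH2+/+, 10.0, 6.50 and 17.8 in EZH2-/+, 4.77, 3.60 and 3.83 in EZH2-/-, and 4.27, 5.65 and 4.12 in EZH2-/- +EZH2. EZH2+/+ and EZH2-/+ overlapped at the top and the other 2 groups overlapped at the bottom. POU3F2, also called BRN2, a factor of neural progenitors and neurons (ENSG00000184486, chr6:98834592-98839490), measured 6.62, 14.05 and 2.45 RPM in EZH2+/+ but 1.03, 0.346 and 0.890 in EZH2-/+. It measured 0.510, 0.507 and 0.119 in EZH2-/- and 0.309, 0.0804 and 0.120 in EZH2-/- +EZH2, so for this gene the EZH2-/+ cells lay with the other edited cells rather than with the wild type.

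LHX5 and MEIS2, the homeodomain genes outside the POU and PAX families, showed different orders among the edited cells. LHX5, a LIM-homeodomain factor of the forebrain (ENSG00000089116, chr12:113462034-113472280), had 471, 76 and 101 reads in EZH2+/+, 117, 12 and 281 in EZH2-/+, 4, 2 and 2 in EZH2-/-, and 15, 4 and 21 in EZH2-/- +EZH2. Like SOX1 it was lowest without EZH2 and somewhat higher when EZH2 was restored (0.0558 ± 0.0167 against 0.444 ± 0.370 RPM, SD, n = 3), with no overlap in RPM. MEIS2, a TALE-homeodomain partner of PAX and HOX factors (ENSG00000134138, chr15:36889204-37101299), measured 26.5, 40.4 and 20.96 RPM in EZH2+/+, 1.69, 0.627 and 4.22 in EZH2-/+, 2.02, 5.22 and 4.10 in EZH2-/-, and 1.62, 0.750 and 3.44 in EZH2-/- +EZH2. Its 3 edited groups overlapped, and the mean was 2.18 ± 1.84 RPM with 1 intact allele and 3.78 ± 1.62 with none (SD, n = 3). In these bulk samples fewer cells that express a gene and less RNA per cell cannot be told apart.

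On the scale of log2(RPM + 0.1), which understates changes of low genes, the 10 genes had a median difference of -2.59 in EZH2-/- against EZH2+/+, from -5.89 for SOX1 to -0.67 for SOX9, where the median of all 20608 genes tested was -0.13. The groups did not overlap for 10 of 10 genes, which the choice of the genes made likely, and 29.2% of all genes were lower without overlap. In EZH2-/+ against EZH2+/+ the median was -1.97, from -3.99 for MEIS2 to -0.32 for POU3F1, lower without overlap for 7 of 10 genes against 11.9% of all genes. In EZH2-/- +EZH2 against EZH2+/+ it was -3.04, from -4.72 for SOX1 to -1.47 for SOX9, lower without overlap for 10 of 10 genes against 22.4% of all genes. In EZH2-/- against EZH2-/+ it was -0.77, lower without overlap for SOX1, LHX5 and POU3F1, 3 of 10 against 17.5% of all genes. These comparisons share a group with the one that chose the genes, so they are no separate evidence and no p-value is given. Between the 2 states of the EZH2-/- line, EZH2-/- minus EZH2-/- +EZH2 had a median of 0.62, and 7 genes were positive (MEIS2 the highest at 1.07, PAX6 at 1.03) while LHX5 (-1.55), SOX1 (-1.17) and POU3F1 (-0.19) were negative. Of these, SOX9 alone was higher without overlap (13.5% of all genes), and LHX5 and SOX1 were lower without overlap (9.7% of all genes). This comparison too shares the EZH2-/- libraries with the choice and is no separate evidence.

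**Figure D2:**
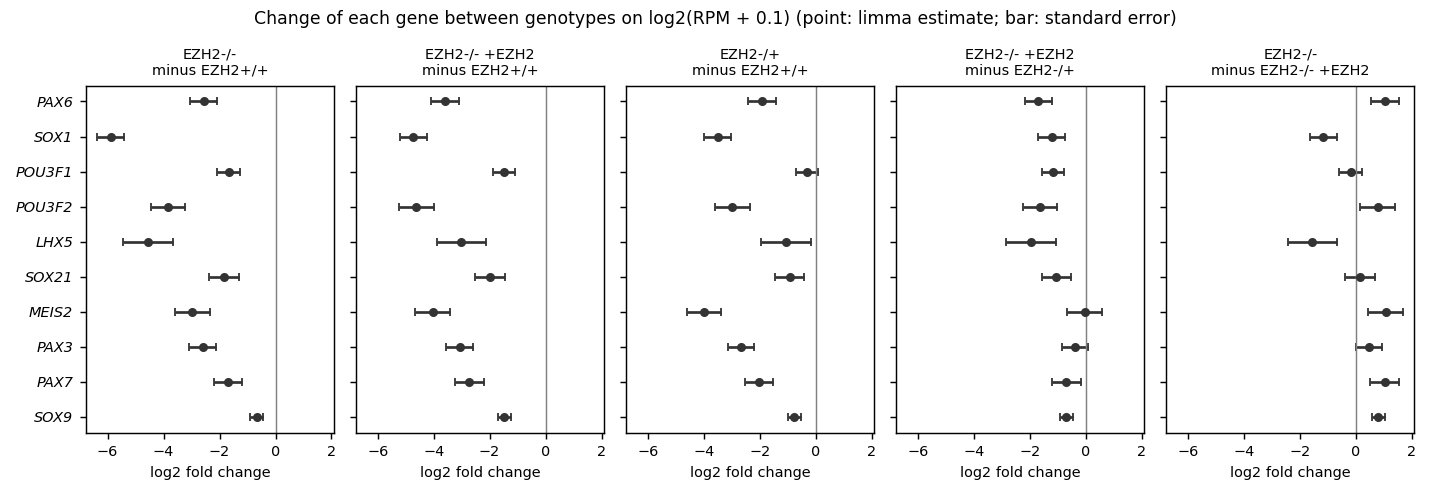
Log2 fold change of each gene on the horizontal axis for 5 comparisons between genotypes, with the limma estimate as a point and its standard error as a bar. The points lie left of 0 in each of the 3 comparisons with EZH2+/+ (medians -2.59, -3.04 and -1.97), left of 0 in EZH2-/- +EZH2 minus EZH2-/+ (median -1.11) and on both sides of 0 in EZH2-/- minus EZH2-/- +EZH2.

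The comparison of EZH2-/- +EZH2 with EZH2-/+ asked whether restored EZH2 returned the genes to the level of cells with 1 intact allele. Its estimates used neither group of the choice. It is not fully separate from the choice, since its spread and filter used all 12 libraries and EZH2-/- +EZH2 is the EZH2-/- line itself. All 10 estimates were negative, with a median of -1.11 against -0.05 over all genes (-1.63 without EZH2-/+ replicate 2 and -0.64 without EZH2-/+ replicate 3), and 0 of 10 genes passed an adjusted p of 0.05 by limma, where 0.655% of all genes were called lower and 1.76% higher. Without adjustment 6 of 10 had a p under 0.05 by limma, and limma-voom on the read counts recovered from the values called 0 of 10, with 3 under 0.05 before adjustment. The lowest adjusted p was that of PAX6 (log2 fold change -1.70, SE 0.50, limma adjusted p = 0.11), followed by SOX9 (-0.70, SE 0.23, adjusted p = 0.17) and POU3F1 (-1.17, SE 0.40, adjusted p = 0.18). PAX6, POU3F1, POU3F2 and SOX9 were lower without overlap, 4 of 10 against 9.95% of all genes. MEIS2 had an estimate of -0.04 (SE 0.62, adjusted p = 0.99), which leaves room for a sizeable difference either way. The result turned on 1 library, since without EZH2-/+ replicate 2 SOX21 passed (log2 fold change -1.85, limma adjusted p = 0.019). Over the other alternatives the lowest adjusted p of the 10 genes lay between 0.070 and 0.29. That library was the lowest of its group for 9 of 10 genes and EZH2-/+ replicate 3 the highest for 9 of 10, and the summed level of the 10 genes was 53.2, 19.0 and 81.6 RPM in EZH2-/+ replicates 1, 2 and 3. The summed level of 27 mesoderm and endoderm regulators moved the other way in the same libraries, at 182, 617 and 80.0 RPM, and its part in the result was not tested.

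Over the 12 libraries the 10 genes varied together. The 45 pairwise Pearson correlations of log2 levels had a median of 0.818 and ran from 0.479 to 0.943, and the correlation of each gene with their mean profile ran from 0.819 for POU3F1 to 0.963 for PAX6. These are descriptions over 12 libraries in 4 groups, in which the difference between EZH2+/+ and the rest is shared. The choice fixed part of this in advance, since all 10 genes were taken as lower in EZH2-/- than in EZH2+/+. Pairwise correlations of other genes were not computed for comparison. Among 15490 other genes that averaged 1 RPM or more, those with a profile most like the mean of the 10 genes were LRP2, an endocytic receptor of the neuroepithelium (r = 0.992), GREB1L (0.985), BOC, a Hedgehog co-receptor (0.981), COLGALT2 (0.977), ZNF521, a zinc-finger factor of early neural cells (0.970), PTN, the growth factor pleiotrophin (0.965), the co-repressor gene TLE4 (0.965), SDK2 (0.960) and TRIM68 (0.959), with 1 more locus, named only by its genomic clone, at 0.968. LRP2 averaged 35.4 RPM in EZH2+/+, 7.93 in EZH2-/+, 4.13 in EZH2-/-, then 3.12 in EZH2-/- +EZH2, the same order as for PAX6. The 5 genes most like PAX6 alone were GREB1L (0.975), BOC (0.973), TNFRSF19 (0.966), SMOC1 (0.965) and SETBP1 (0.964).

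Other neural plate and brain patterning genes were also low. Of 36 tested, 18 fell and 1 rose in EZH2-/- against EZH2+/+ (limma, adjusted p under 0.05), where 18.8% of all genes fell and 12.6% rose, and their median log2 fold change was -1.23. CRABP1, which binds retinoic acid, fell from 325 ± 219 to 26.9 ± 9.40 RPM (SD, n = 3; log2 fold change -3.43, SE 0.41, adjusted p = 0.00012). HES3, a HES-family repressor of neural stem cells, fell by 3.39 on the log2 scale, DACH1 by 2.95 and the nuclear receptor gene NR2F1 by 2.70. NES, which encodes the intermediate filament nestin, rose by 0.65. The number of genes that rose was 0 without EZH2+/+ replicate 2 or 3 or EZH2-/- replicate 1 or 2. That number was 2 without EZH2+/+ replicate 1 or EZH2-/+ replicate 3. In EZH2-/- +EZH2 against EZH2+/+, 18 of the 36 fell and 0 rose by limma (6.9% and 3.4% of all genes), but 6 fell without EZH2+/+ replicate 1, and 11 and 7 without EZH2-/- +EZH2 replicates 1 and 2. Between EZH2-/- and EZH2-/- +EZH2, 2 of the 36 were higher without EZH2 and 0 lower by limma (2.63% and 0.524% of all genes), and with a replicate block 4 were higher and 6 lower. Without EZH2-/- replicate 2 or 3, or EZH2-/- +EZH2 replicate 2 or 3, 0 were higher. It was 1 without EZH2+/+ replicate 2, EZH2-/- replicate 1 or EZH2-/- +EZH2 replicate 1, and 1 was then lower without EZH2-/- replicate 1. The 2 were ZIC1 (log2 fold change 2.42) and NR2F2 (2.58), and neither passed with limma-voom. In EZH2-/- +EZH2 against EZH2-/+ 0 rose and 2 fell, ZIC2 (-0.998, adjusted p = 0.041) and ZIC5 (-1.05, adjusted p = 0.032), zinc-finger genes of the dorsal neural plate. With a replicate block 2 rose and 5 fell. Without EZH2-/+ replicate 1 or 2, or any 1 of the EZH2-/- +EZH2 libraries, 0 fell, and 1 fell without EZH2+/+ replicate 2, EZH2-/+ replicate 3 or EZH2-/- replicate 3. These 4 genes were named after their values were seen.

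Paralogs of the 10 genes went both ways. Of 21 tested, 5 rose and 7 fell in EZH2-/- against EZH2+/+. The LIM-homeodomain gene LHX1 (log2 fold change 4.51, SE 0.93), LHX6 (2.75, SE 0.30), POU3F4 (2.15, SE 0.34) and PAX5 (1.52, SE 0.45) rose, each a relative of a gene described above that was lower, and PAX2 (-2.52, SE 0.72), PKNOX2 (-1.73, SE 0.32), PBX4 (-1.52, SE 0.38) and PBX3 (-1.17, SE 0.26) fell. POU3F4 averaged 0.115 RPM in EZH2+/+, 0.345 in EZH2-/+, 0.843 in EZH2-/-, then 0.0223 in EZH2-/- +EZH2. It was higher without EZH2 than with EZH2 restored (limma log2 fold change 2.94, SE 0.34, adjusted p = 0.0013), while POU3F1 and POU3F2 were low in both states.

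Genes of the neural plate border and neural crest other than PAX3, PAX7 and SOX9 were mostly not called, with 5 of 17 higher and 0 lower in EZH2-/- than in EZH2+/+ by limma (median 0.29), and 3 higher without EZH2+/+ replicate 2. TWIST1, a crest and mesoderm factor, rose from 0.233 ± 0.0747 to 7.30 ± 1.48 RPM, KLF5 by 2.89 on the log2 scale, ETS1 by 2.81 and FOXD3 by 2.61. Of 33 ligands, antagonists and response genes of the BMP, Nodal and FGF pathways, which decide between neural and other fates, 18 rose and 2 fell. LEFTY2 (log2 fold change 5.29), LEFTY1 (4.77), NODAL (4.64) and CER1 (3.96) rose, and FST, which encodes the activin antagonist follistatin, fell from 314 ± 24.6 to 66.5 ± 1.61 RPM, as did the BMP response gene ID2 (-1.80). In EZH2-/- +EZH2 FST stood at 89.6 ± 35.7 RPM.

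**Figure D3:**
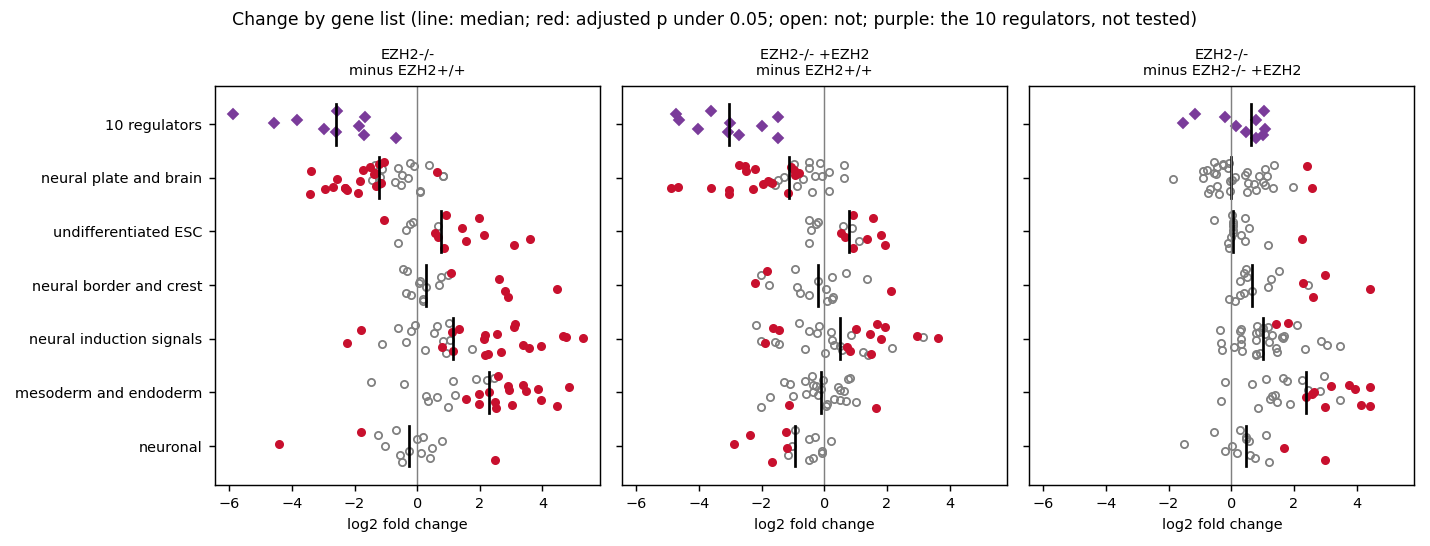
Log2 fold change of single genes on the horizontal axis for the 10 regulators and 6 gene lists in rows, in 3 comparisons, with a line at each median, red for adjusted p under 0.05 by limma and open circles otherwise. The 10 regulators lie left of 0 in both comparisons with EZH2+/+, as do most neural plate and brain genes (medians -1.23 and -1.11), while most mesoderm and endoderm regulators lie right of 0 in EZH2-/- against both EZH2+/+ and EZH2-/- +EZH2 (medians 2.29 and 2.38).

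Lists for other cell states also differed. Of 27 primitive streak, mesoderm and endoderm regulators 16 rose and 0 fell in EZH2-/- against EZH2+/+ by limma (1 fell with a replicate block or without EZH2-/- +EZH2 replicate 3, and 10 rose without EZH2-/- replicate 2), among them HAND1 (log2 fold change 4.86), TWIST1 (4.48), HAND2 (3.86) and GATA6 (3.46). Of 16 undifferentiated ESC genes 10 rose, UTF1 by 3.62, GDF3 by 3.10, TDGF1 by 2.12 and NANOG by 1.98, and SOX2, which belongs also to the neural list, fell from 224 ± 23.3 to 109 ± 23.6 RPM (3 genes fell with a replicate block, 2 without EZH2-/+ replicate 2 or 3). Of 14 fibroblast and mesenchyme genes 8 rose (5 without EZH2+/+ replicate 3 or EZH2-/- replicate 2), led by COL3A1, COL6A3, LUM and ACTA2, and COL1A2 and VIM fell. The list's summed level was 1081 to 1508 RPM in EZH2+/+ and 1260 to 2763 in EZH2-/-, the highest in EZH2-/- replicate 2, where the 10 genes summed to 26.8 RPM against 24.9 and 25.8 in the other replicates. Of 15 neuronal genes 2 fell (MAP2 by 4.42 and DCX by 1.79) and 1 rose (ISL1 by 2.49). With a replicate block or without EZH2+/+ replicate 2, 2 neuronal genes rose. Of 11 PRC2 subunit genes 4 fell (EZH2, EZH1, MTF2 and EED) and 0 rose. With median-ratio scaling 2 of them fell and 1 rose, and 2 fell without EZH2-/- replicate 2. The median log2 fold change over the 11 genes was -0.31. The paper reported EED transcripts as unchanged in EZH2-/- ESCs, and those of EZH1 as largely unchanged. The summed level of the neuronal genes was 302 to 335 RPM in EZH2+/+, 243 to 263 in EZH2-/+, 253 to 285 in EZH2-/-, then 187 to 225 in EZH2-/- +EZH2, with 0, 2, 1 and 4 of 20 genes without a read. The part that a share of cells leaving or entering the neural lineage had in the levels of the 10 genes was not tested.

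The chromatin data gave 1 averaged column for each mark and genotype, so no test was possible. The labels name 2 libraries behind each histone column, but the sources differ on whether 2 or 3 were averaged, and counting intervals and depths were computed for 2. For each gene the 5 kb window around a transcription start with the most H3K27me3 in EZH2+/+ was used. To show what kind of sequence carried the mark, the 250 bases before the RefSeq start are printed for 5 genes, read from GRCh38.p14, with each CG dinucleotide in capitals. SOX1, at chr13:112066899-112067148 (plus strand), and PAX3, at chr2:222298999-222299248 (minus strand), are shown because their H3K4me3 was lower without EZH2. PAX6, at chr11:31817962-31818211 (minus strand), was intermediate. POU3F1, at chr1:38046794-38047043 (minus strand), and POU3F2, at chr6:98834324-98834573 (plus strand), are shown because their H3K4me3 was much the same in EZH2-/- and EZH2+/+. In EZH2-/+ it was higher at both, at 25.5 and 24.8 RPM against 12.7 and 16.4 in EZH2-/-.
SOX1: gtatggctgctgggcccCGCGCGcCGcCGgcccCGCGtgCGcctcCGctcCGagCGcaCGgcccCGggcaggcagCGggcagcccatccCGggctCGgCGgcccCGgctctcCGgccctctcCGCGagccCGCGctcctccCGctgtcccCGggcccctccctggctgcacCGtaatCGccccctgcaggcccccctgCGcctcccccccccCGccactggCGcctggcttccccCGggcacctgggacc
PAX3: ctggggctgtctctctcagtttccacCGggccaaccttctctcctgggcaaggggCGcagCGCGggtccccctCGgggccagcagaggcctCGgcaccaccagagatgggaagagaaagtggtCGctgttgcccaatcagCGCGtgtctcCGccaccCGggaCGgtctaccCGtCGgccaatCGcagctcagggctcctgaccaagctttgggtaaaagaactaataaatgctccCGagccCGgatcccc
PAX6: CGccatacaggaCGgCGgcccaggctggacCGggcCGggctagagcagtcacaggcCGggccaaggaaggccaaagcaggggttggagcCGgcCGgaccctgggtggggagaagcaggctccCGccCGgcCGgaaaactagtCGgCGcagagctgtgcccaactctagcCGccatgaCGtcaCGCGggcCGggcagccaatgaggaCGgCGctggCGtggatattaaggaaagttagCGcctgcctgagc
POU3F1: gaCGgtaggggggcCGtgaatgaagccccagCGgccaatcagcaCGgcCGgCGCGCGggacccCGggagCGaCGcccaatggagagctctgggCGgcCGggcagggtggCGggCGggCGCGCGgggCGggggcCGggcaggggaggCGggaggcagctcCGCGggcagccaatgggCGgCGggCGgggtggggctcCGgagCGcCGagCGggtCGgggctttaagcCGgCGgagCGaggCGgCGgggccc
POU3F2: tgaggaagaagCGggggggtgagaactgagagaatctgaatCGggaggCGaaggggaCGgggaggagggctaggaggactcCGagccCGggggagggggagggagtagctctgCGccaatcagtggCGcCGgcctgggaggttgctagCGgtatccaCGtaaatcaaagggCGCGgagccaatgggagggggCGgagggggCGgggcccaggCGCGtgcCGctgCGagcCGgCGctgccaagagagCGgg

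RefSeq promoters were matched for 8 of the 10 genes, not LHX5 and SOX9. They held 11 to 36 CG dinucleotides in 250 bases, with a median of 20 against 11 over 35116 promoters, and those just printed held 31 (SOX1), 17 (PAX3), 22 (PAX6), 36 (POU3F1) and 22 (POU3F2). The number therefore did not separate SOX1 and PAX3 from POU3F1 and POU3F2. On either strand, the octamer ATGCAAAT of POU factors was in 0 of 8 and in 1.63% of all promoters, ACAAAG and ACAATG of SOX factors in 0 of 8 each (13.7% and 9.29%), the homeodomain core TAATTA in 0 of 8 (4.35%), and TGACAG of MEIS and PKNOX factors in 1 of 8, that of SOX21 (13.0%). These counts describe the letters in a short window and nothing more.

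EZH2 itself lay over all 10 promoters in wild-type ESCs. Its signal, from 1 library, was 2.30 RPM at MEIS2 to 7.62 at PAX6, against a median of 0.290 over 35683 gene names, and each of the 10 ranked above at least 97.2% of names. H3K27me3 at PAX6 was 50.6 RPM in EZH2+/+, 56.1 in EZH2-/+, 2.502 in EZH2-/-, then 43.4 in EZH2-/- +EZH2. Over the 10 genes it ranged from 6.32 to 50.6 RPM in EZH2+/+, from 14.9 to 57.0 in EZH2-/+, from 0.679 to 3.70 in EZH2-/-, then from 14.2 to 44.7 in EZH2-/- +EZH2, while input ranged from 0.925 to 1.29 RPM in EZH2-/-. PAX3 and LHX5 kept the highest values without EZH2, at 3.29 and 3.70 RPM, SOX9, SOX21 and MEIS2 were under their own input, and the mark was back at all 10 with EZH2. All 10 promoters were over the study's threshold of 0.1 log2 RPKM for this mark in EZH2+/+, EZH2-/+ and EZH2-/- +EZH2, and 0 of 10 in EZH2-/-, where 17.5%, 16.8%, 14.5% and 1.54% of all names were.

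The loss was part of the rule and is given as a description. H3K27me3 in EZH2-/- minus EZH2+/+ was -4.74 on the log2 scale at SOX9, -4.29 at PAX6 and -2.77 at SOX21, the smallest, with a median of -3.59 against -0.94 over all names. A fall by 1 or more was seen at 10 of 10 and at 48.0% of names, and against EZH2-/- +EZH2 it was seen at 10 of 10 and at 37.3% of names. With EZH2 restored, 8 of the 10 promoters were within 0.26 of EZH2+/+ on the log2 scale. The exceptions were SOX21 (6.32 RPM in EZH2+/+, 14.9 in EZH2-/+, 14.2 in EZH2-/- +EZH2) and MEIS2 (8.91, 22.7 and 20.0 RPM), which were higher than EZH2+/+ by 1.16 each in EZH2-/- +EZH2 (SOX21 interval of counting error 0.87 to 1.48, MEIS2 0.92 to 1.43). A rise by 1 or more was seen at 1.18% of names in that comparison and at 0.653% in EZH2-/+ against EZH2+/+. Both genes had the lowest H3K27me3 of the 10 in EZH2+/+. Less RNA in EZH2-/- +EZH2 than in EZH2+/+ was common to all 10 genes and not particular to SOX21 and MEIS2.

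**Figure D4:**
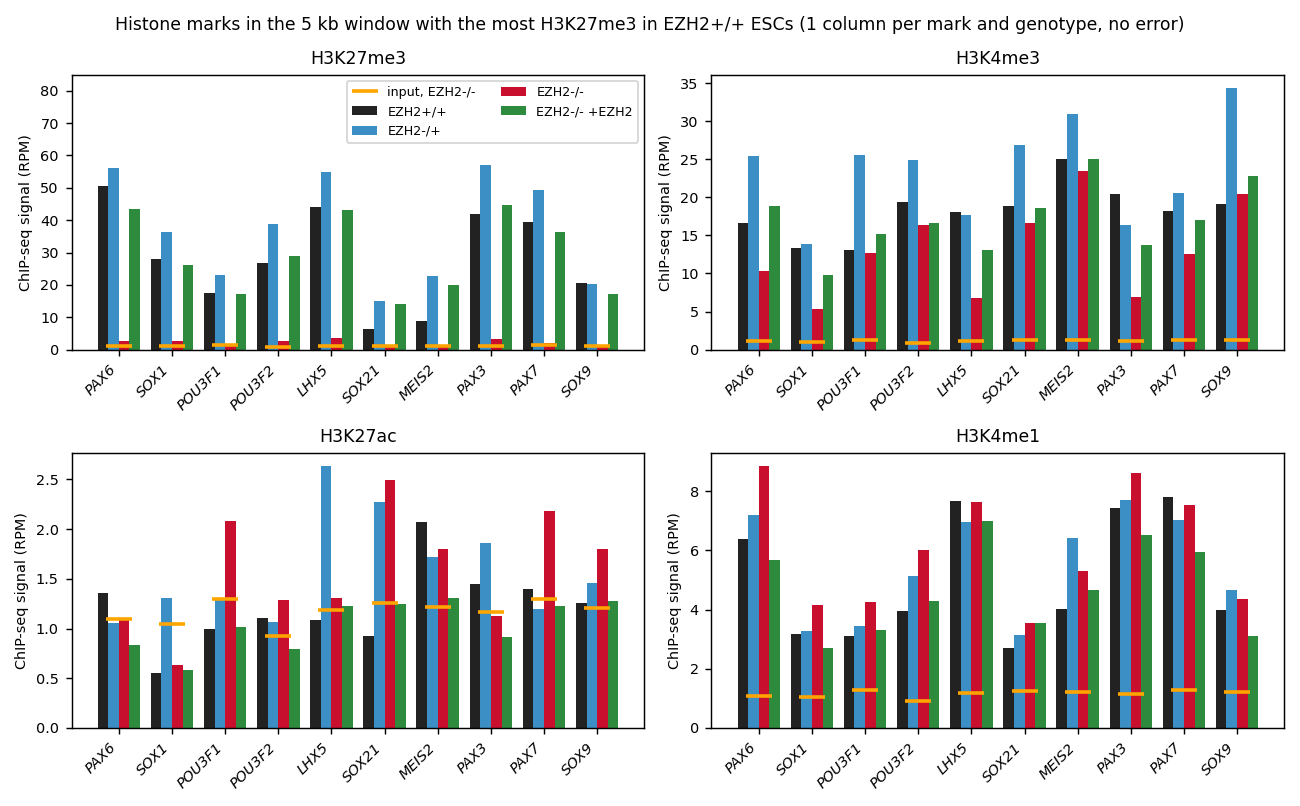
ChIP-seq signal in RPM at the promoter of each gene for 4 histone marks, with a bar for each EZH2 genotype and an orange line for input in EZH2-/-, 1 averaged column each and so no error bar. H3K27me3 in EZH2-/- is at most 3.70 RPM, and H3K4me3 in EZH2-/- is lower than in every other genotype except at SOX9, where it is 20.4 RPM against 19.1 in EZH2+/+.

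H3K4me3, a mark of promoters poised for or engaged in transcription, was not gained at the 10 genes when H3K27me3 was lost. At PAX3 it was 20.5 RPM in EZH2+/+, 16.3 in EZH2-/+, 6.85 in EZH2-/-, then 13.7 in EZH2-/- +EZH2. At LHX5 it was 18.1, 17.7, 6.78 and 13.0 RPM, and at SOX1 13.4, 13.9, 5.27 and 9.81 RPM in the same order. These 3 genes had the mark lowered by at least 1 log2 unit in EZH2-/- against EZH2+/+ (-1.57, -1.40 and -1.33), 3 of 10 where 12.6% of names were lowered as much, and kept a level above input. Only SOX1 of the 10 went under the same threshold for this mark in EZH2-/-, where 16062 of 35683 names were over it. SOX1 lay just under it with about 54 reads a library, so counting error alone could decide the side. The paper set that threshold for H3K27me3 and not for H3K4me3. PAX6 (-0.68) and PAX7 (-0.52) were lowered less, and POU3F2 (-0.24), SOX21 (-0.18), MEIS2 (-0.09), POU3F1 (-0.04) and SOX9 (0.10) had counting intervals that included 0. All 8 start-site windows of PAX3, both of LHX5 and the 1 of SOX1 were lowered by 1 or more, as were 2 of 29 of PAX6 and 2 of 26 of MEIS2.

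The EZH2+/+ H3K4me3 libraries were shallow, at 3426083 reads each against 10327471 to 17385575 for the other genotypes. In EZH2-/+, at 12295957 reads, the median over the 10 genes was 25.1 RPM, against 12.6 in EZH2-/- (3.77 and 3.57 over all names). The mark was 25.4 RPM at PAX6, 25.5 at POU3F1 and 30.9 at MEIS2 in EZH2-/+, against 10.3, 12.7 and 23.4 in EZH2-/-. Compared instead with EZH2-/- +EZH2, all 10 genes had less H3K4me3 without EZH2. The difference was -0.99 at PAX3, -0.93 at LHX5, -0.88 at SOX1 and -0.86 at PAX6, and lay between -0.43 and -0.01 at the other 6 genes, with a median of -0.35 against 0.05 over all names. None reached a fall by 1, which 0.944% of names did. Only 0.98% to 1.77% of names had a lower value than these 4 genes. POU3F2 and MEIS2 were at -0.01 and -0.10. RNA in this same comparison was higher without EZH2 for 7 genes, among them POU3F2 (0.77), MEIS2 (1.07), PAX6 (1.03) and PAX3 (0.46). It was lower for LHX5 (-1.55), SOX1 (-1.17) and POU3F1 (-0.19).

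H3K27ac, a mark of active regulatory sequence, was low at all 10 promoters, at 0.548 to 2.07 RPM in EZH2+/+ and 0.629 to 2.496 in EZH2-/-, close to the input range, with medians of 1.18 and 1.55 RPM against 2.04 and 2.58 over all names. At SOX21 it was 0.920 RPM in EZH2+/+, 2.28 in EZH2-/+, 2.496 in EZH2-/-, then 1.25 in EZH2-/- +EZH2. SOX21 was the one gene of the 10 with a rise by 1 or more in EZH2-/- against EZH2+/+ (9.18% of names), and its RNA was lower there. POU3F1 fell just short at 0.997 (interval of counting error 0.27 to 1.87). Against EZH2-/- +EZH2 all 10 genes had more H3K27ac without EZH2, 0 of them by 1 or more, with a median of 0.45 against 0.16 over all names. In EZH2-/+ against EZH2+/+, SOX1, LHX5 and SOX21 had a rise by 1 or more, 3 of 10 against 1.07% of names, from 0.548, 1.09 and 0.920 to 1.31, 2.64 and 2.28 RPM. These values rest on few reads, about 7, 13 and 11 a library in EZH2+/+ and 13, 26 and 23 in EZH2-/+. Intervals of counting error were 0.28 to 2.37, 0.59 to 2.03 and 0.56 to 2.13. Input in EZH2-/+ was 1.13, 1.12 and 1.27 RPM at the 3 genes. H3K4me1 was 2.70 to 7.82 RPM in EZH2+/+ and 3.55 to 8.86 in EZH2-/-, with a median difference of 0.38 against 0.11 over all names and 0 of 10 with a change by 1, where 4.06% of names fell and 2.34% rose as much. At PAX6 it was 6.38 RPM in EZH2+/+, 7.19 in EZH2-/+, 8.86 in EZH2-/-, then 5.68 in EZH2-/- +EZH2.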

How the data were processed

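RNA-seq libraries had been trimmed with Trim Galore 0.4.0, aligned to GRCh38 with TopHat2 2.0.12 and counted per gene in SeqMonk by the authors, and ChIP-seq reads aligned with Bowtie2 2.2.5. Both deposited tables hold log2 RPM, for RNA per gene and library and for ChIP-seq per 5 kb window around a start site, with the histone and input columns averaged over 2 libraries per the labels, though the sources differ between 2 and 3 (the EZH2 column is 1 library). Values were turned back to RPM. For RNA, 100% of values under 1000 reads were whole multiples of 1 read within 0.05, and genes without a read carried 0.9 of a read and were set to 0.

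RNA levels were fitted with limma 3.58.1 (R 4.3.3) on log2(RPM + 0.1) over 20608 genes averaging 0.1 RPM or more, all 12 libraries in 1 model, and p-values were adjusted by the Benjamini-Hochberg method across these genes. Tested on simulated data for EZH2-/- +EZH2 minus EZH2-/+ over 20608 genes, the fit recovered 100% of 200 genes changed 4-fold, with 12 false calls. That share does not give the power for the neuroectoderm regulators. Their SD between libraries ran from 0.27 for SOX9 to 1.33 for LHX5 on the log2 scale. LHX5, with the largest change among them in that comparison (log2 fold change -1.95, SE 0.89), was not called (limma adjusted p = 0.37). Samples were grouped by their labels. Deviations of libraries with the same replicate number correlated positively in every comparison (0.107 to 0.560). Some pairs with unlike numbers were also positive, up to 0.245 for EZH2-/+ replicate 2 with EZH2-/- +EZH2 replicate 1. A fit with the number as a block is therefore given where it changes a printed count by over 1.5 times. For ChIP-seq, 0.1 RPM was added before logs. The 95% exact intervals cover counting error only, from depths read off the smallest value (3426083 to 23776151 reads a library, EZH2 93188383).

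The 10 genes and the gene lists were chosen with earlier results of these data known. Named genes are the 10, up to 4 genes of each list and direction with the largest change among those with adjusted p under 0.05 in EZH2-/- minus EZH2+/+, and those with the most similar profiles. Promoters are RefSeq entries (GRCh38.p14), the one nearest the middle of the ChIP-seq window. The library kit does not mark strand, so reads of overlapping or antisense genes listed at PAX6 (RCN1), LHX5 (LHX5-AS1), MEIS2 (RP11-128A17.1), PAX3 (CCDC140) and SOX9 (SOX9-AS1) cannot be told apart from theirs. Alternatives were other pseudocounts and filters, median-ratio scaling, limma-voom, leaving out each library and, for ChIP-seq, other windows and centring.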

Additional observations from a re-analysis of the deposited data

How the results depend on the processing

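Of 368 values of 32 results recomputed under alternatives, 322 stayed within their limits. The scaling mattered for all genes: with median-ratio scaling 3378 genes rose and 2822 fell in EZH2-/- minus EZH2+/+ in place of 2593 and 3870 (54.5% against 40.1% higher), and 1030 and 877 in place of 701 and 1422 in EZH2-/- +EZH2 minus EZH2+/+ (54.0% against 33.0%). It moved the median of all genes from -0.13 to -0.01 and turned MEIS2 in EZH2-/- +EZH2 minus EZH2-/+ from -0.04 to 0.0025. The replicate block raised the counts to 1276 higher and 661 lower in EZH2-/- minus EZH2-/- +EZH2 (542 and 108 without it), 1290 and 3321 in EZH2-/- +EZH2 minus EZH2+/+ and 728 and 603 in EZH2-/- +EZH2 minus EZH2-/+ (362 and 135 without it). It called none of the 10 genes in that last comparison, with limma adjusted p from 0.070 to 0.98, and of the list counts in the text it moved by over 1.5 times those given there and the PRC2 genes higher in EZH2-/- minus EZH2+/+ (1). With it 2 neural plate genes rose and 5 fell in EZH2-/- +EZH2 minus EZH2-/+, in place of 0 and 2. In EZH2-/- minus EZH2-/- +EZH2, 221 rose and 67 fell among genes averaging 1 RPM or more, and 259 and 41 with limma-voom, which gave 77 lower genes in EZH2-/- +EZH2 minus EZH2-/+.

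Leaving out 1 library, with the spread pooled over all groups, gave 1796 to 3147 genes higher and 2343 to 4560 lower in EZH2-/- minus EZH2+/+, 123 to 862 and 14 to 227 in EZH2-/- minus EZH2-/- +EZH2, 328 to 973 and 551 to 2028 in EZH2-/- +EZH2 minus EZH2+/+, and 126 to 399 and 33 to 145 in EZH2-/- +EZH2 minus EZH2-/+. The lowest of the first 4 counts came without EZH2-/- replicate 2. Of the 10 genes 0 to 1 passed in the last comparison, and MEIS2 ran from -0.68 to 0.60 there. The median RNA change over the 10 genes kept its sign in each comparison under these alternatives, and with a pseudocount of 1 RPM it was -1.92 in EZH2-/- +EZH2 minus EZH2+/+. H3K27me3 centred on all names gave a median of -2.65 for EZH2-/- minus EZH2+/+ and -3.24 against EZH2-/- +EZH2, where a pseudocount of 1 RPM gave -3.27. The cause of these shifts was not tested. Depth limits SOX1, LHX5 and PAX7 in RNA, and H3K4me3 in EZH2+/+.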
